A study of Mus musculus with 12 samples.

Results

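The regions described here are active distal enhancers: stretches that carried H3K4me1 together with H3K27ac in one mouse pancreatic cancer cell line, away from H3K4me3 and H3K27me3. They were chosen from the region lists of the female line labelled KDM6A-WT, as H3K4me1 regions overlapped by at least 1 bp of an H3K27ac region and by no H3K4me3 or H3K27me3 region. Of 56076 H3K4me1 regions in that line, 6474 (11.5%) met the rule. All values of the 4 lists of female WT served to choose them, so these are given as a description and without a test.

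Enhancers are regulatory stretches that act on a promoter at a distance. H3K4me1 is laid down there mainly by the methyltransferases MLL3 and MLL4 (KMT2D), and H3K27ac marks the enhancers that are in use, whereas H3K4me1 without acetylation is called primed. H3K4me3 is the mark of active promoters and H3K27me3 that of Polycomb repression. KDM6A removes methyl groups from H3K27 and is a subunit of the MLL3 and MLL4 complexes, which is why enhancers are the elements to look at in a tumour line without it.

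The lists come from ChIP-seq of untreated tumour cell lines of mouse pancreas, grown in F12/DMEM with EGF. The labels name a female and a male line for each genotype, KDM6A-KO and KDM6A-WT, and describe every line, those labelled WT included, as coming from a tumour null for this gene. KO and WT are used below as the labels give them. H3K4me1 was listed in all 4 lines, KDM6A and MLL4 in female KO and female WT, and H3K27ac, H3K4me3 and H3K27me3 in female WT. The KDM6A antibody gave more regions in the line labelled KO (5961) than in the one labelled WT (2847), so its lists do not separate the lines as the labels would have it, and every direction below is that of the label. Each group held 1 library, so no difference between lines has a replicate check and no p-value is given. Brackets hold exact Clopper-Pearson 95% intervals over regions, which cover counting error only and treat neighbouring regions as independent. The reads inside the listed regions ranged from 108165 (MLL4, WT) to 17526099 (H3K4me3) per library, and total depth is unknown. A region missing from a list may hold signal under the caller's threshold, and in bulk chromatin a mark lost in some cells and one lowered in all cells cannot be told apart.

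The active distal enhancers were longer and held more reads than H3K4me1 regions without another mark. An overlap of 1 bp is met more easily by a long region, so the rule itself favours this order. Per kb the medians were 40 and 32.5 reads. Their median length was 3400 bp, with the middle 50% between 2200 and 5800 bp and the extremes at 400 and 96600 bp, and they covered 29.99 Mb in all. H3K4me1 reads per enhancer had a median of 138 and ran from 18 to 5642. The 24315 regions with H3K4me1 alone had a median of 2400 bp and 75 reads, and the 18088 regions with both H3K27ac and H3K4me3, the promoter-type regions, had 3600 bp and 141 reads. Acetylation covered a median of 66.7% of an enhancer's length, and 1314 enhancers lay under H3K27ac from end to end. The H3K27ac regions on the enhancers were themselves modest, with a median of 84 reads against 136 in the whole H3K27ac list.

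The label "distal" was set beside the distance to H3K4me3, whose overlaps the rule had already removed. The nearest H3K4me3 region lay a median of 15.2 kb away, against 22.6 kb for regions with H3K4me1 alone. For 651 enhancers (10.1%) there was none within 100 kb. At the near end, 1476 enhancers (22.8%) had H3K4me3 within 5 kb, 317 (4.90%) had it within 1 kb and 22 touched it. In 509 (7.86% [7.22 to 8.54]) the acetylated region itself ran on into H3K4me3. A promoter without H3K4me3 would not be seen in this way. Distance to genes and the pancreatic origin of the lines were not checked, because the gene positions at hand belong to another genome build than mm9, the build of these lists. For the same reason the regions are given by position and without sequence or gene names.

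At the border of the rule, 67 enhancers met H3K27ac by only 200 bp, and 80 regions with H3K4me1 alone touched an H3K27ac region without overlapping it. H3K4me1 of female KO was listed at 56.7% of the former and 50% of the latter. Male WT listed 71.6% of the former and 88.75% of the latter, and male KO 52.2% and 67.5%. The 31 regions kept out by an H3K4me3 overlap of 200 bp gave 64.5% in female KO, 77.4% in male WT and 93.5% in male KO. In the male lists the enhancers just inside the acetylation border were thus listed less often than the regions just outside it. These sets of 67 and 80 regions are small, no interval is given, and their length and reads were not compared.

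The enhancers were nearly all listed for H3K4me1 in the male line labelled WT and less often in the KO lines. Male WT overlapped 6147 of the 6474 (94.9% [94.4 to 95.5]), where all H3K4me1 regions of female WT gave 77.7%. Male KO overlapped 5123 (79.1% [78.1 to 80.1]), against 61% of all H3K4me1 regions. Female KO overlapped 3941 (60.9% [59.7 to 62.1]), against 48.9% of all. The 3 intervals did not meet. The order male WT, male KO, female KO was also found on each of the 20 chromosomes. Read as absence, 2533 enhancers were missing from female KO (39.1%, against 51.1% of all H3K4me1 regions), 1351 from male KO (20.9%, against 39%) and 327 from male WT (5.05%, against 22.3%).

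Part of that order could come from the length of the lists, which held 64247 regions in male WT, 49780 in male KO and 35041 in female KO. With all H3K4me1 lists cut to the 35041 regions with the most reads, 4911 enhancers remained, and they were overlapped in 90.2% of cases by male WT, in 70.8% by male KO and in 62.0% by female KO. The male and female KO lists then differed by less than before. The share in male KO minus that in male WT was -19.4 percentage points with the cut lists and -15.8 with the full ones. The shares of all H3K4me1 regions with the cut lists were not computed.

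**Figure D1:**
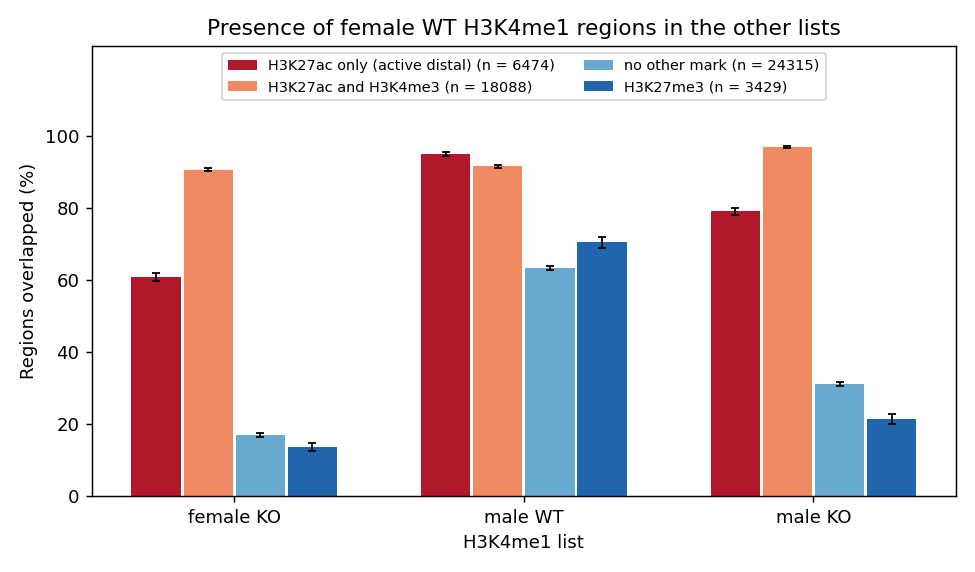
Share of female WT H3K4me1 regions (vertical axis, percent) overlapped by at least 1 bp in the H3K4me1 lists of female KO, male WT and male KO, for 4 classes of regions by the other marks of female WT; bars start at 0 and error bars are exact 95% binomial intervals over regions. Active distal enhancers fall from 94.9% in male WT to 79.1% in male KO, while regions with H3K27ac and H3K4me3 go from 91.6% to 97.0%.

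As a whole, the promoter-type regions went the other way in the male lines, as the plot of presence by class shows, though not those with the most reads. Regions with H3K27ac and H3K4me3 were overlapped in 91.6% [91.1 to 92.0] of cases by male WT and in 97.0% [96.8 to 97.3] by male KO, so that they were listed less often than the enhancers in male WT and more often in male KO. Up to 76 reads the promoter-type regions gave 78.8% in male WT and 95.7% in male KO. Above 260 reads they gave 99.5% [99.3 to 99.7] and 98.1% [97.7 to 98.4], the same direction as the enhancers, and above 4800 bp 98.6% and 98.1%. The enhancers were lower in male KO in both classes of reads, with 89.0% against 76.3% up to 76 reads and 98.9% against 81.6% above 260. The enhancers were lower in male KO than in male WT on all 20 chromosomes, with differences from -6.07 points on chromosome 15 (90.3% against 96.4%) to -24.4 points on chromosome 11 (71.6% against 96.1%). Over all H3K4me1 regions the difference was -16.6 points, so the -15.8 points of the enhancers lay near the background. The promoter-type regions were higher in male KO on 17 of 20 chromosomes, with differences from -1.08 points on chromosome 11 to 33.8 points on chromosome 14. Chromosome 14 was kept in every alternative, so its part in the pooled difference was not tested. In female KO, 90.7% [90.3 to 91.1] of the promoter-type regions were listed, well above the 60.9% of the enhancers. Regions with H3K4me1 alone gave 63.3% in male WT, 31.2% in male KO and 17.1% in female KO, the last being 17.1% [16.6 to 17.5]. Those with H3K27me3 in place of H3K27ac gave 70.5%, 21.5% and 13.7%. In the KO lists the enhancers therefore stood between the promoter-type and the primed regions.

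Length and reads moved the KO shares by a few points. Among enhancers of up to 2600 bp, of 2600 to 4800 bp and above, female KO overlapped 58.4%, 61.5% and 63.0%, and male KO 77.6%, 79.2% and 80.7%. Regions with H3K4me1 alone gave 18.6% and 23.6% in female KO in the middle and long classes, and promoter-type regions 91.2% and 93.2%. Among enhancers with up to 76 H3K4me1 reads, female KO listed 57.6% [55.1 to 59.95] and male WT 89.0%. Among those with more than 260 reads, female KO listed 63.9% [61.5 to 66.3] and male WT 98.9%. The KO shares also went with acetylation. Enhancers acetylated over at most 44.4% of their length were listed in female KO in 56.0% [53.6 to 58.5] of cases and in male KO in 73.5%, those acetylated over more than 90.5% in 66.2% [63.8 to 68.5] and 83.1% [81.2 to 84.9]. Male WT was near 95% in every class of acetylation, from 94.1% to 95.9%.

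The 4 H3K4me1 lists sorted the enhancers into 8 patterns. All 4 lists held 3415 of them (52.7% [51.5 to 54.0]), where 41.2% of all H3K4me1 regions were held by all. Absence from female KO alone came next with 1508 (23.3%, against 13.4% of all regions). Absence from both KO lists with presence in male WT was found for 808 (12.48% [11.7 to 13.3]), below the 19.6% of all regions, and absence from male KO alone for 416 (6.43%, against 3.48%). Only 106 (1.64%) were listed in female WT alone, a pattern of 15% of all H3K4me1 regions. The remaining patterns were presence in female WT and male KO (111 enhancers, 1.71%, against 3.17%), absence from male WT alone (89, 1.37%, against 3.27%) and presence in the female lists alone (21, 0.324%, against 0.906%). In all, 914 enhancers (14.1%) were absent from both KO lists, where 34.6% of all H3K4me1 regions were.

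Absence from one KO list went with absence from the other. Among the enhancers present in male WT, 34.9% [32.9 to 36.9] of those missing from female KO were also missing from male KO, against 10.9% [9.89 to 11.9] of those present in female KO. Over all H3K4me1 regions the shares were 59.5% and 7.78%, which lie farther apart than in the enhancers. Regions with H3K4me1 alone gave 68.2% and 29.8%, and promoter-type regions 14.9% and 1.39%. Both KO lists are compared here with one WT list that also defined the enhancers, so the values describe these lists and not a test of the genotype.

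**Figure D2:**
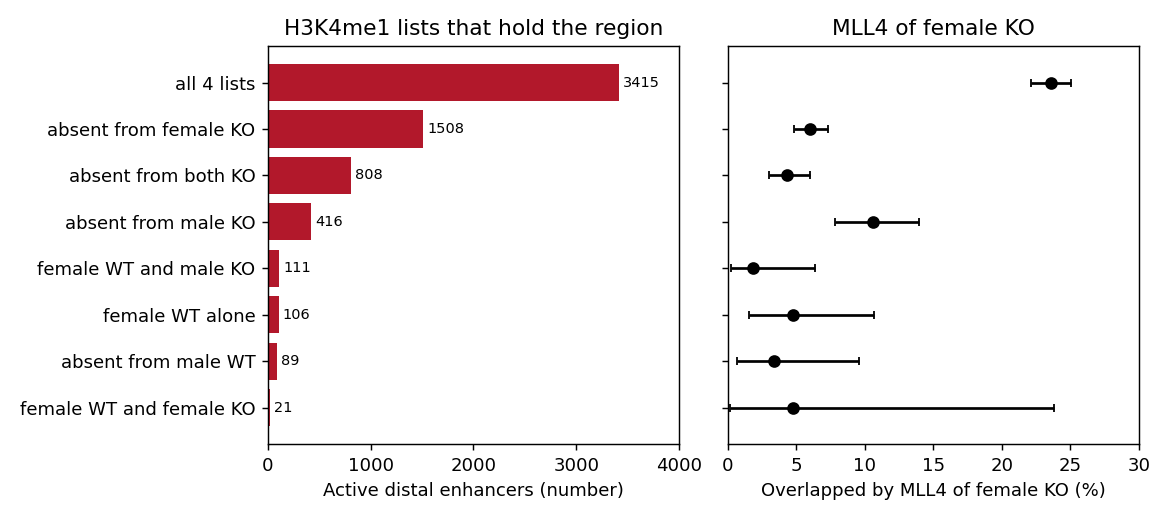
Left, number of active distal enhancers in each pattern of presence over the 4 H3K4me1 lists (bars, number at the end). Right, share of each pattern overlapped by MLL4 of female KO (percent, points with exact 95% binomial intervals). The pattern present in all 4 lists holds 3415 enhancers and has the highest MLL4 share, 23.6%.

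Among the enhancers in all 4 lists, those with the most reads were long, and presence by 1 bp understated what differed between lines. The leading one, chromosome 15, 53023201 to 53119800, spanned 96.6 kb with 5642 H3K4me1 reads in female WT and had H3K27ac over 6.21% of its length. Male WT covered 72.9% of it, male KO 29.8% and female KO 11.0%. Its neighbour at 52975801 to 53010400, with 1942 reads, was covered to 83.8%, 35.8% and 6.94% in the same order. Chromosome 15, 27403801 to 27443400, with 2425 reads, had 66.2% in male WT, 12.1% in male KO and 5.05% in female KO. The enhancer at chromosome 17, 30162201 to 30224200, with 3056 reads, kept more, with 92.9% in male WT, 46.8% in male KO and 61.9% in female KO. At chromosome 8, 125441001 to 125491800, with 2685 reads, the values were 91.3%, 78.7% and 36.2%. All 5 were covered most in male WT.

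The 3 leading enhancers absent from both KO lists stood next to each other on chromosome 7. They lay at 81512001 to 81535800, 81551001 to 81574800 and 81592401 to 81617800, with 1612, 1560 and 1440 reads in female WT. Male WT covered the former 2 completely and the last to 88.2%. H3K27ac took up 10.1%, 13.4% and 14.2% of them, and H3K4me3 was 159.2, 120.2 and 77.2 kb away. Next came chromosome 19, 28581401 to 28600800, with 1171 reads, where H3K27ac covered 39.2% and both KDM6A and MLL4 of female WT were listed. The last, chromosome 17, 81078601 to 81103000, with 1147 reads, was covered in male WT to only 13.1%, so its presence there rested on a short part.

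Enhancers of female WT alone were smaller. The leading one, chromosome 5, 3459201 to 3473800, had 781 reads over 14.6 kb, followed by chromosome 9, 60319201 to 60331400, with 619 reads. The other 3, on chromosomes 10, 14 and 1, had 420, 407 and 304 reads. None of these 5 was overlapped by KDM6A or MLL4 in either line, which was also true of 79.3% of all enhancers and 83.5% of all H3K4me1 regions. H3K27ac covered between 25.7% and 31.1% of each.

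Where a KO list did hold H3K4me1 at an enhancer, the part it kept was mostly the acetylated part. In the 3941 enhancers overlapped by female KO, its H3K4me1 covered 86.5% of the bases under H3K27ac of female WT and 45.4% of the other bases. Male KO gave 88.3% and 46.3% over its 5123 enhancers. Male WT gave 96.4% and 72.9% over 6147, so the acetylated part was also the better covered in a WT line, with a smaller distance between the 2 values. Taken per enhancer, the median covered share was 89.2% in female KO, 87.8% in male KO and 100% in male WT. Over all 6474 enhancers, female KO covered 43.0% of the bases, male KO 56.4% and male WT 83.1%.

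**Figure D3:**
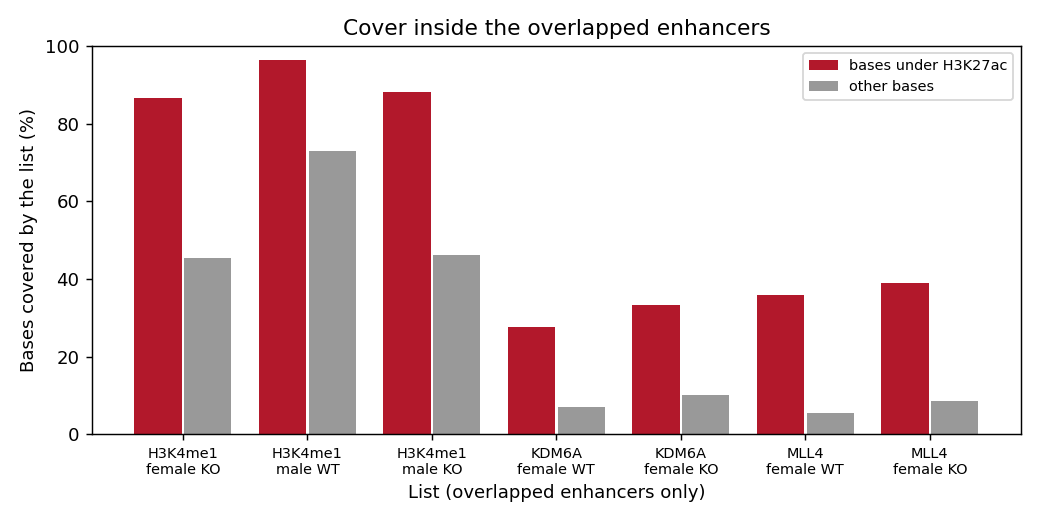
Share of bases (vertical axis, percent) covered by each list inside the active distal enhancers that the list overlaps, for bases under H3K27ac of female WT and for all other bases of these enhancers. Bars start at 0. In every list the acetylated bases are covered more, with 86.5% against 45.4% in H3K4me1 of female KO.

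The plot of cover inside the enhancers also shows the binding lists, which covered a larger share of the acetylated than of the other bases. MLL4 of female KO covered 39.0% of the acetylated and 8.49% of the other bases of the enhancers it overlapped, and MLL4 of female WT 35.9% and 5.43%. For KDM6A the values were 33.3% and 10.01% in KO and 27.6% and 6.96% in WT. Of the MLL4 sequence of female KO inside enhancers, 86.7% lay under H3K27ac, which took up 58.8% of these enhancers. H3K27ac came from female WT in each of these comparisons.

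MLL4, which sets H3K4me1 at enhancers, was listed at 985 enhancers in female KO (15.2% [14.3 to 16.1], against 11.8% of all H3K4me1 regions) and at 163 in female WT (2.52% [2.15 to 2.93], against 2.55%). The lists held 13152 regions in KO and 2130 in WT. With the KO list cut to its 2130 regions with the most reads, it overlapped 191 of the 6474 enhancers (2.95% [2.55 to 3.39]), and its interval met that of WT. With the H3K4me1 lists cut as well, which left 4911 enhancers, the shares were 3.60% [3.10 to 4.16] in KO and 3.30% [2.82 to 3.84] in WT. The shares of all H3K4me1 regions under these cuts were not computed. Seen from the lists, 8.41% of the MLL4 regions of KO and 7.89% of those of WT lay on the enhancers. In female KO, regions with H3K4me1 alone had MLL4 in 3.80% [3.57 to 4.05] of cases and promoter-type regions in 24.2% [23.6 to 24.8], and the enhancers lay between them. In female WT the values were 0.753% and 5.17%. Both lines held MLL4 at 45 enhancers (0.695%, against 1.15% of all H3K4me1 regions), KO alone at 940 (14.5%, against 10.7%) and WT alone at 118 (1.82%, against 1.4%).

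Enhancers with MLL4 in female KO held H3K4me1 in that line far more often than the others. Of the 985 with MLL4, 853 (86.6% [84.3 to 88.7]) were overlapped by H3K4me1 of female KO, and of the 5489 without, 3088 (56.3% [54.9 to 57.6]). The difference of 30.3 points was near the same among short, middle and long enhancers, with 85.9% against 55.6%, 88.1% against 56.4% and 85.7% against 56.9%. By reads it was 83.8% against 55.3% up to 76 reads and 86.3% against 57.6% above 260. H3K4me1 of male KO, another line, was also more frequent at these enhancers, at 91.4% [89.4 to 93.0] against 76.9% [75.8 to 78.0]. The other classes showed the same direction in female KO, with 45.2% against 15.9% for H3K4me1 alone and 97.7% against 88.5% for promoter-type regions. The pattern held in all 4 H3K4me1 lists had MLL4 of KO at 23.6%, and the pattern absent from both KO lists and present in male WT at 4.33%. MLL4 and H3K4me1 of female KO come from the same cells, and how far local read depth moves both was not tested.

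**Figure D4:**
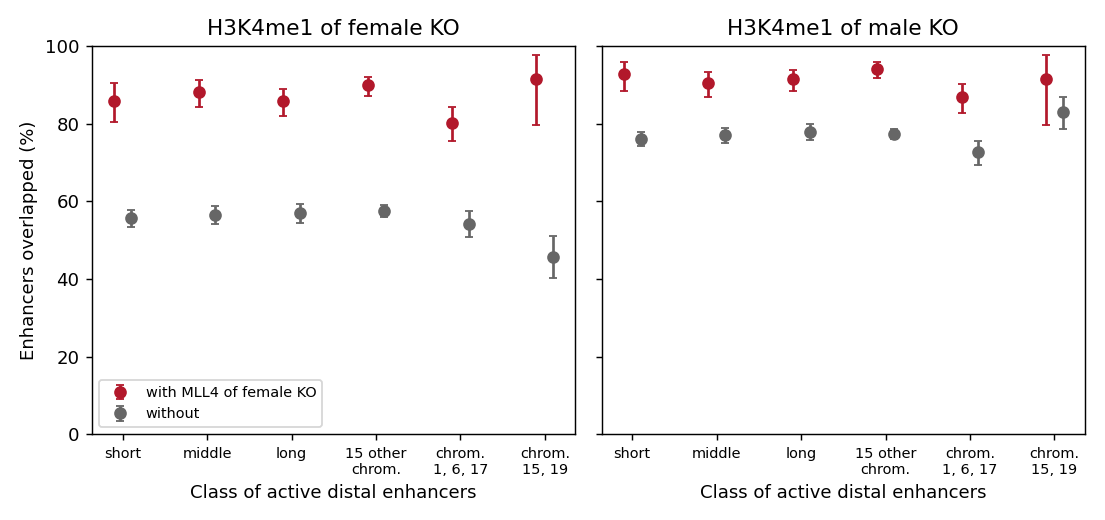
Share of active distal enhancers (vertical axis, percent) overlapped by H3K4me1 of female KO (left) and of male KO (right), with and without MLL4 of female KO, by class of length and by set of chromosomes; error bars are exact 95% binomial intervals. Enhancers with MLL4 lie at 80.2% to 91.5% in female KO and those without at 45.6% to 57.5%.

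MLL4 of female WT did not go with a higher share. Enhancers with MLL4 in WT were overlapped by H3K4me1 of female KO in 56.4% [48.5 to 64.2] of 163 cases, and those without in 61.0% [59.8 to 62.2], with intervals that meet. The 118 with MLL4 in WT and not in KO gave 48.3%, the 45 with MLL4 in both lines 77.8%, and the 940 with MLL4 in KO and not in WT 87.0%. All were listed in male WT in 98.3% of cases or more. Among the 5 enhancers with the most reads in the set with MLL4 in KO and not in WT, all were found in every H3K4me1 list. After the chromosome 17 region named above came chromosome 2, 125742201 to 125768000, with 1775 reads. It was covered to 74.4% by male WT, 89.1% by male KO and 41.9% by female KO. At chromosome 5, 91127001 to 91155200, with 1551 reads, H3K4me1 of female KO covered 96.5% and belonged to regions with 10079 reads in all, which reach beyond the enhancer. H3K27ac covered 64.5% of it and MLL4 of KO was listed with 150 reads. The other 2 lay on chromosome 2 at 14550201 to 14580600 (1613 reads) and 22827401 to 22858600 (1449 reads).

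KDM6A, the demethylase named in the labels, was listed at few enhancers in either line, at shares near those of all H3K4me1 regions. The list of female WT overlapped 219 (3.38% [2.96 to 3.85], against 2.97% of all H3K4me1 regions) and that of female KO 299 (4.62% [4.12 to 5.16], against 4.58%). Seen from the lists, 7.90% of the 2847 KDM6A regions of WT and 5.35% of the 5961 of KO lay on the enhancers. With the KO list cut to its 2847 regions with the most reads, the number in WT, it overlapped 146 of the 6474 (2.26% [1.91 to 2.65]), below WT. With the H3K4me1 lists cut as well, the shares over 4911 enhancers were 4.26% [3.71 to 4.86] in WT and 2.67% [2.23 to 3.16] in KO. The shares of all H3K4me1 regions under these cuts were not computed, so the change of order may not be particular to the enhancers. Both lists held 28 enhancers (0.432%, against 0.526%), WT alone 191 (2.95%, against 2.45%) and KO alone 271 (4.19%, against 4.06%). Enhancers with KDM6A in female WT were overlapped by H3K4me1 of female KO in 64.8% [58.1 to 71.2] of cases and those without in 60.7% [59.5 to 61.9]. In male KO the values were 81.3% [75.5 to 86.2] and 79.1% [78.0 to 80.1]. Both pairs of intervals meet, which does not show that the shares are the same. In female KO the direction changed with reads. Above 260 reads, enhancers with KDM6A of WT gave 73.1% [64.8 to 80.4] against 63.1% [60.6 to 65.5]. Between 138 and 260 reads they gave 50% [36.6 to 63.4] against 62.6% [60.2 to 65.1]. Enhancers in the KDM6A list of the line labelled KO gave 80.3% [75.3 to 84.6] against 59.9% in female KO. Of those 299, 181 also carried MLL4 of KO. Any of the 4 binding lists reached 1338 enhancers (20.7%, against 16.5% of all H3K4me1 regions), and none reached 5136 (79.3%, against 83.5%).

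KDM6A and MLL4 of female WT met at 34 enhancers (0.525%, against 0.719% of all H3K4me1 regions), long ones with a median of 8000 bp and 504.5 reads. H3K4me1 of female KO was listed at 47.1% of these 34 and that of male KO at 67.6%. All enhancers gave 60.9% and 79.1%, and the values of the 34 have no interval here. Regions with both proteins gave 21.1% in female KO among those with H3K4me1 alone and 94.5% among promoter-type regions. The leading one was chromosome 19, 28581401 to 28600800, described above, and 2 others of the leading 5 were on chromosome 19, at 5935001 to 5948400 (1024 reads) and 34584401 to 34597400 (957 reads). Chromosome 15, 75226401 to 75240000, with 834 reads, was covered to 92.6% by male WT and absent from both KO lists, and its H3K27ac regions held 986 reads. Of all enhancers on chromosomes 15 and 19, female KO listed 51.3%. Chromosome 1, 81734201 to 81754000, with 939 reads, was overlapped by the KDM6A and MLL4 lists of both lines, as were 3 enhancers in all (0.0463%, against 0.146%). Its H3K4me1 cover was 91.9% in male KO, 50.5% in male WT and 43.4% in female KO. The KDM6A and MLL4 lists of female KO met at 181 enhancers (2.80%, against 2.66%), of which 88.4% carried H3K4me1 of that line. Whether the regions of the KDM6A antibody in the line labelled KO mark that protein was not tested.

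The binding lists were uneven over the chromosomes at the enhancers too. On chromosomes 1, 6 and 17, MLL4 of female KO overlapped 28.2% [25.7 to 30.8] of 1203 enhancers and KDM6A of KO 11.6% [9.80 to 13.5]. On chromosomes 15 and 19, MLL4 of WT overlapped 9.79% [6.99 to 13.2] of 378 enhancers and KDM6A of WT 13.5% [10.2 to 17.4]. On the other 15 chromosomes, with 4893 enhancers, MLL4 gave 12.2% in KO and 2.19% in WT, and KDM6A 2.98% [2.53 to 3.50] in KO and 2.74% [2.30 to 3.24] in WT. MLL4 of KO was above MLL4 of WT on 19 chromosomes and equal to it on X, whereas KDM6A was higher in KO on 10 and in WT on 9. H3K4me1 of female KO was listed at 51.3% [46.2 to 56.5] of the enhancers on chromosomes 15 and 19, at 61.5% on 1, 6 and 17 and at 61.5% on the other 15. Enhancers with MLL4 of KO were above those without in female KO in each set of chromosomes, with 89.8% against 57.5% on the other 15 and 80.2% [75.6 to 84.3] against 54.2% [50.8 to 57.5] on 1, 6 and 17. The sets of chromosomes were taken from earlier results of these data, as chromosomes with a surplus. Their higher binding shares therefore follow from that choice and are given as a description. The other classes were uneven in the same way. MLL4 of KO overlapped 49.8% of promoter-type regions and 12.8% of those with H3K4me1 alone on chromosomes 1, 6 and 17. On the other 15 it overlapped 19.1% and 2.18%. KDM6A of WT gave 17.9% and 9.17% on chromosomes 15 and 19, against 3.94% and 1.09% on the other 15. Copy number was not tested.

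**Figure D5:**
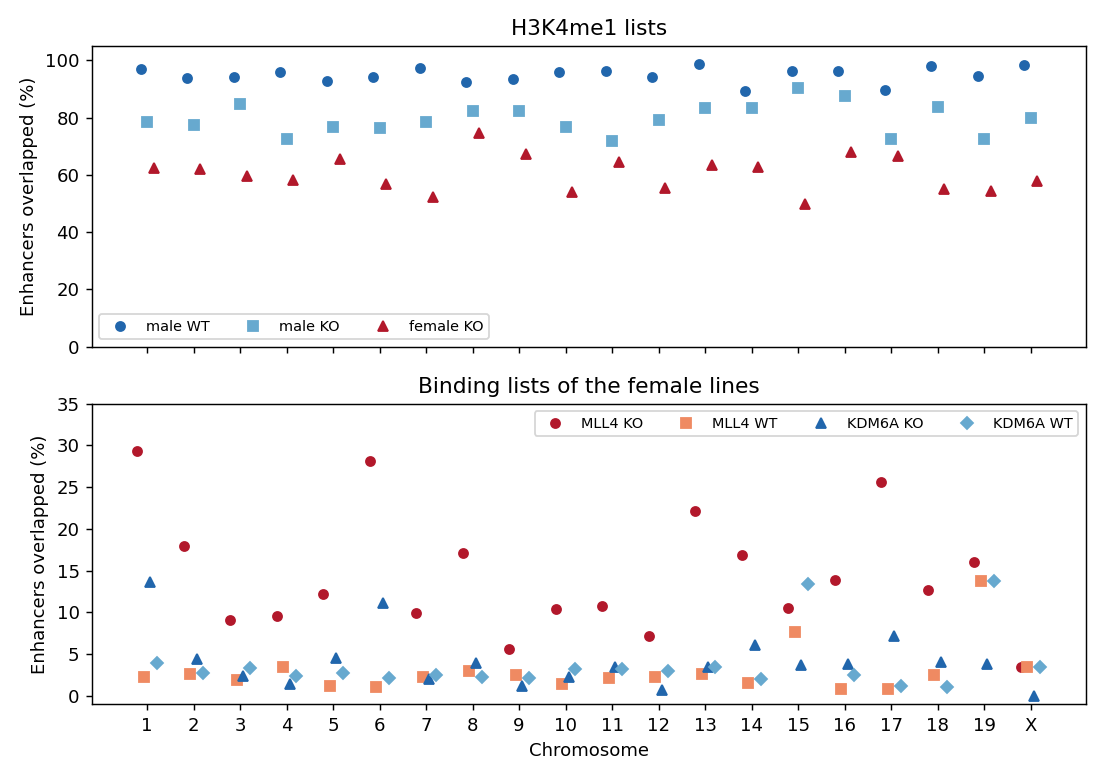
Share of active distal enhancers overlapped (vertical axis, percent) on each chromosome (horizontal axis), above for the H3K4me1 lists of male WT, male KO and female KO, below for MLL4 and KDM6A of the female lines. Each point is 1 list on 1 chromosome; male WT lies above male KO and male KO above female KO on all 20, and MLL4 of KO is highest on chromosome 1, at 29.4%.

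By chromosome, the plot of shares shows H3K4me1 of female KO between 49.8% on chromosome 15 and 74.8% on chromosome 8. Male KO ran from 71.6% on chromosome 11 to 90.3% on chromosome 15, where female KO was lowest. On X, 114 enhancers gave 57.9% [48.3 to 67.1] in female KO and 79.8% [71.3 to 86.8] in male KO, both near the values of the autosomes, 60.9% and 79.1%.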

How the data were processed

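The 11 region lists used come from 1 ChIP-seq library each, and the input library had no list used here. The submitters' processing notes name mm9, SICER 1 and Bowtie 1.1.2, without roles. The deposited lists give chromosome, start, end and a whole number per region, taken as a read count. No header names that column, and the reading rests on the values and the 200 bp steps of the borders. Control, threshold and mapped reads are not given in the sources used here. Positions are printed counting from 1. The members and lists were chosen with earlier results of these data known. Overlap meant at least 1 bp. Classes of length and reads were cut at the enhancers' own quantiles. Named regions were the 5 with the most H3K4me1 reads of female WT in each of 5 sets: all 4 H3K4me1 lists; absent from both KO and present in male WT; female WT alone; KDM6A and MLL4 of WT; MLL4 of KO and not of WT. Gene names and cell type markers, planned for an annotation of mm9 alone, were not used here, since the reference tables describe another build. Alternatives were 50% cover, H3K27ac over 50%, H3K4me3 beyond 5 kb, enhancers at or above the median reads, chromosomes left out and lists of the same number; those on differences, on H3K27ac reaching H3K4me3 and on cutting the binding lists alone were added after seeing the data. Python 3.11.15, numpy 2.4.6, pandas 2.3.3, scipy 1.17.1 and matplotlib 3.10.9 were used. Overlaps were tested on simulated data (2584 planted overlaps, 2584 recovered) and checked against bedtools 2.31.1.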

Additional observations from a re-analysis of the deposited data

How the results depend on the processing

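Each group held 1 library, so the number of libraries limits every comparison. No paired analysis was possible because each group has 1 library and no test was made. The order male WT above male KO above female KO held under all 7 alternatives. MLL4 of KO stayed above MLL4 of WT in all 7, but their intervals met where the lists had the same number. KDM6A of KO was above that of WT in 5 of 7. For the binding lists, the cut of these lists alone took the place of the alternative on H3K27ac reaching H3K4me3. Of the 62 values recomputed, 24 stayed within the 95% interval or within 1.5 times the number of enhancers, which was 4568 to 4998. Below, values follow the order female KO, male WT and male KO for H3K4me1, then KDM6A of WT and KO, then MLL4 of WT and KO, and those within the interval are left out.

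With at least 50% of the enhancer covered the shares were 51.6%, 91.5%, 67.5%, 0.263%, 0.896%, 0.139% and 3.57%; the binding regions are shorter than most enhancers, which lowers these by construction. With H3K27ac over at least 50% they were 62.9% in female KO, 81.4% in male KO, 2.76% for KDM6A of WT and 1.77% for MLL4 of WT. Without H3K4me3 in 5 kb they were 58.5% in female KO, 95.7% in male WT and 16.1% for MLL4 of KO. At or above the median reads they were 63.1%, 98.0%, 80.8%, 5.95%, 6.63%, 4.72% and 20.3%. Without chromosomes 1, 6, 15, 17 and 19 KDM6A gave 2.74% and 2.98% and MLL4 of KO 12.2%. With lists of the same number male WT gave 90.2%, male KO 70.8%, KDM6A 4.26% and 2.67%, and MLL4 3.30% and 3.60%; with the binding lists alone cut, KDM6A of KO gave 2.26% and MLL4 of KO 2.95%. Without the enhancers whose H3K27ac reaches H3K4me3, male WT gave 95.5%. Male KO minus male WT was -24.1 points at 50% cover and -19.4 with lists of the same number for the enhancers, and 2.80, 10.2 and, without the 5 chromosomes, 6.13 for promoter-type regions. The cause of these shifts was not tested.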

Other observations

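Enhancers nearer to H3K4me3 were more often listed in female KO. H3K4me1 of that line overlapped 75.1% [69.9 to 79.7] of the 317 enhancers with H3K4me3 within 1 kb, 60.0% [58.0 to 62.1] of the 2254 at 5 to 20 kb and 56.4% [52.5 to 60.2] of the 651 beyond 100 kb. Male KO showed no such order, with 79.8% [74.96 to 84.1], 79.0% and 81.3% [78.0 to 84.2]. MLL4 of female KO ran the other way, from 7.57% [4.91 to 11.1] within 1 kb to 13.0% and 24.7% [21.5 to 28.2] beyond 100 kb. H3K4me1 of male WT also rose with distance, from 89.3% [85.3 to 92.5] to 95.1% and 97.5% [96.0 to 98.6]. Male KO therefore lay farther below male WT beyond 100 kb than within 1 kb. The difference between the lines was not tested.

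Joined across the gap commonly used for super-enhancers, the enhancers formed 220 clusters of 3 or more, 695 pairs and 4339 single enhancers. Clusters did not differ much from single enhancers in female KO, at 64.4% [60.9 to 67.9] against 59.8% [58.3 to 61.3]. Of the 220 clusters, female KO held every enhancer in 87 and none in 34, male KO in 127 and 9, and male WT in 194 and 0. Neighbours in a cluster tended to share their state: after an enhancer listed in female KO the next was listed in 79.1% [76.1 to 82.0] of 772 cases, and after an absent one in 37.1% [32.6 to 41.7] of 448. The clusters with the most enhancers, chosen after the values were seen, were chromosome 17, 32006601 to 32069600, where 7 of 8 were listed in female KO, 6 in male WT and 8 in male KO, and chromosome 6, 134657401 to 134719400, where 3 of 8 were listed in female KO, 8 in male WT and 3 in male KO.

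The 500 strongest joined H3K27ac domains held 697 of the enhancers. Female KO listed 69.3% [65.7 to 72.7] of these and 59.9% [58.6 to 61.1] of the others, and male WT 90.8% [88.4 to 92.9] against 95.4% [94.9 to 96.0]. Male KO did not share the difference of female KO, with 79.1% [75.8 to 82.0] against 79.1% [78.1 to 80.2].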
